A study of Mus musculus with 7 samples.

Results

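The genes described here carry out DNA replication and supply its nucleotides. They were chosen by name, with earlier results of these data known, as a list of 43 gene symbols. The list was matched to the gene symbols of the probe annotation. Of the 43 genes, 42 were measured, each by 1 probe set, out of 19505 genes on the array. The gene not named in the probe table was Mcm7, a subunit of the replicative helicase.

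The cells were mouse embryonic fibroblasts (MEFs), profiled on the Clariom S mouse array, which reports 1 biotin-labelled sample per array. Retroviruses delivered Gata4 and Tbx5 (GT) together with a form of Mef2c: isoform 2 fused to the MyoD transactivation domain (GT/M2TAD), isoform 6 (GT/M6), isoform 2 (GT/M2) or isoform 1 (GT/M1). A further pair of transduced cultures also received small interfering RNA (siRNA) against Ep300 (siEp300) or a control siRNA (siCtrl). Titles of the siRNA samples name GT/M2, while their other labels name GT/M2TAD, so the Mef2c form on these arrays is not settled. Transduced cells were harvested at 1 week, and all of them shared Gata4, Tbx5 and a form of Mef2c. MEF cells had no treatment, their time of harvest was not given, and no array carried virus without factors, so in differences from MEF the factors, the infection, any siRNA and the culture time cannot be told apart. Each of the 7 groups had 1 array. There was no spread between replicates, no test and no p-value, and every difference below is between single arrays.

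Cells prepare each round of replication by loading the MCM helicase onto origins with the origin recognition complex, Cdc6 and Cdt1. Helicase activation by Cdc45 and the GINS complex follows at the start of S phase, and polymerases, primase, the sliding clamp and its loader then copy both strands. Ribonucleotide reductase and thymidylate synthase provide the deoxynucleotides. Many of these genes are transcribed in a wave before S phase under E2F factors, which pocket proteins of the retinoblastoma family hold in check in cells that have left the cycle. Fibroblasts in culture divide, whereas heart muscle cells largely stop dividing after birth.

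Promoter sequences are shown because the members differed from MEF in the same direction and E2F factors are known to act on many of them. RefSeq windows of the GRCm38.p6 build, from 250 bases before to 50 bases after the annotated start, were found for 34 of the 42 members, in 38 windows. Both strands were searched for TTCCCGC and TTGGCGC (E2F-type motifs), CCAAT (the box bound by NF-Y) and TTTGAA (the CHR element of late cell cycle genes). The windows below belong to the members with the lowest median difference from MEF over the 6 transduced arrays, Rrm2 and Mcm5, and to those with the highest, Gins3 and Rfc3, among members with a window. Each is written 5′ to 3′ on the strand of its gene. Capitals mark the matches on either strand, and no matches overlapped in these 4 windows.
Rrm2, chr12:24708004-24708303, + strand: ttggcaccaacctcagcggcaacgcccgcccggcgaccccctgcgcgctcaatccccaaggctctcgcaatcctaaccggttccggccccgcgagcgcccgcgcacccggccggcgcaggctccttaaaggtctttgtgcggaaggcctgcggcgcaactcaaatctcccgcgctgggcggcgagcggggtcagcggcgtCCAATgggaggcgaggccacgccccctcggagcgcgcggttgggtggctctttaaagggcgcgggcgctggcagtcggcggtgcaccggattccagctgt
Mcm5, chr8:75109259-75109558, + strand: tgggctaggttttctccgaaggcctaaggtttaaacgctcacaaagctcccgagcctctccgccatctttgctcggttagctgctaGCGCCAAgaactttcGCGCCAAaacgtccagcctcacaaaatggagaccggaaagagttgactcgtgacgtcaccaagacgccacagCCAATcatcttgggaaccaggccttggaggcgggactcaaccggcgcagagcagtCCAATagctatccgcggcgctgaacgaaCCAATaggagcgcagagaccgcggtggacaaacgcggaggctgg
Gins3, chr8:95633309-95633608, + strand: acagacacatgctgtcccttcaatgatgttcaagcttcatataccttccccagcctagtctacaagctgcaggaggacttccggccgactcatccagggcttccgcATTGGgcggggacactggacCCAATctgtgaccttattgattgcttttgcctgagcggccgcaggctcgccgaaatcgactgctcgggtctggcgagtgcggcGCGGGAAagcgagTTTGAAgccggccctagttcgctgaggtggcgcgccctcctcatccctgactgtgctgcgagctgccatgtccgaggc
Rfc3, chr5:151651159-151651458, - strand: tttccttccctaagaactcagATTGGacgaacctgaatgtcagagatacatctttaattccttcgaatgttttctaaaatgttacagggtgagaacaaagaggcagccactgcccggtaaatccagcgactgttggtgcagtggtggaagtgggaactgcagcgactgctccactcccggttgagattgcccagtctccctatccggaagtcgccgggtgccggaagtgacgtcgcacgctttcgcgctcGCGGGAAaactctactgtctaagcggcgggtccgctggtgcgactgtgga
The Rrm2 window held 1 CCAAT box and no E2F-type motif. The Mcm5 window held 2 E2F-type motifs and 3 CCAAT boxes. Both Gins3 and Rfc3, the least different of the 4, held 1 E2F-type motif, and the one in Rfc3 began at base 251 of the window, the annotated start itself. The signals of Gins3 and Rfc3 lay below the 95th percentile of negative-control probes on every array. That of Rfc3 on MEF, at 4.82, lay below the median of all named genes there, at 5.38, and that of the negative-control probes, at 4.98. The differences of Gins3 may thus be understated, while those of Rfc3 give neither size nor direction.

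E2F-type motifs stood in the windows of 18 of 34 (52.9%) members with a window, against 1629 of 15691 (10.4%) genes named on the array with a window. Other replication genes, a further list described below, had them in 20 of 36 (55.6%) genes, and other nucleotide supply genes in 6 of 24 (25%). Mitosis genes had them in 3 of 26 (11.5%). The CHR element showed the opposite order, with 4 of 34 (11.8%) members and 18 of 26 (69.2%) mitosis genes, against 2790 of 15691 (17.8%) genes on the array. CCAAT boxes were found in 19 of 34 (55.9%) members and 6617 of 15691 (42.2%) genes. In 3 of the 38 member windows, matches overlapped, whether of the same or of different motifs. Over the 18 members with an E2F-type motif, the median of the members' median differences from MEF was -3.11, with a range of -4.80 to -0.092. Over the 16 without one it was -2.49, with a range of -6.40 to -1.31. These ranges overlap over most of their length, and the end at -0.092 is Rfc3, whose signals lay below the negative-control percentile. A match describes letters in a window and does not show that a factor binds there. Only exact matches were counted, so a window without a match may still hold a variant of the motif.

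**Figure D1:**
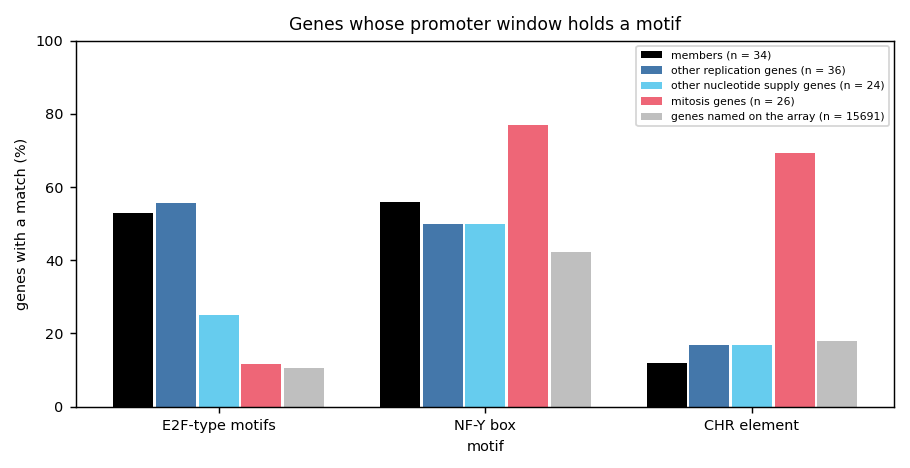
Percentage of genes whose promoter window holds a match to each motif, for the members and 3 other lists and for all genes named on the array that have a window. E2F-type motifs stand in 52.9% of members and 11.5% of mitosis genes, and the CHR element in 11.8% of members and 69.2% of mitosis genes.

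Signals are log2 values. The median over 19505 genes lay between 5.38 and 5.71 on the 7 arrays, and the 95th percentile of 5222 negative-control probes between 8.43 and 9.33. Of the 42 members, 4 exceeded their array's percentile on GT/M2TAD, 4 on GT/M6, 11 on GT/M2, 4 on GT/M1, 5 on siEp300 and 5 on siCtrl, against 26 on MEF. Of all genes, 26.3% exceeded it on GT/M2TAD, 25.6% on GT/M6, 28.2% on GT/M2, 23.7% on GT/M1, 29.6% on siEp300 and 28.6% on siCtrl, against 26.2% on MEF. Pcna, Rrm1 and Rpa1 exceeded it on every array and 16 members on none, so for most members the size of a difference rests in part on background and may be understated. Fibroblast markers exceeded the percentile in 7 to 10 of 11 genes on the transduced arrays and 9 of 11 on MEF, and the log2 of their summed signal was 19.10 to 19.91 on the transduced arrays and 19.85 on MEF. That sum rests on the brightest genes. Singly, 7 of 11 fibroblast markers were 2-fold lower than on MEF on GT/M2TAD, 7 on GT/M6, 8 on GT/M2, 7 on GT/M1, 1 on siEp300 and 2 on siCtrl, and 1 to 3 were higher. Median differences of the fibroblast markers were -1.90 on GT/M2TAD, -1.76 on GT/M6, -2.55 on GT/M2, -2.62 on GT/M1, -0.17 on siEp300 and 0.058 on siCtrl. Cardiomyocyte markers did so in 8 to 9 of 15 genes on the transduced arrays and 1 of 15 on MEF, with 18.60 to 19.76 on the transduced arrays and 10.62 on MEF by the same sum. No macrophage marker of 7 exceeded it on any array, and their sums were 7.33 to 9.34 on the transduced arrays and 8.04 on MEF. Endothelial markers exceeded it in 0 of 7 on the transduced arrays and 1 of 7 on MEF, with sums of 6.72 to 7.68 and, on MEF, 9.26. Epithelial markers did so in 0 to 1 of 7 on the transduced arrays and 0 of 7 on MEF, with sums of 9.35 to 12.75 and, on MEF, 8.18. Of the delivered factors, Tbx5 had signals of 16.14 to 16.23 on the 4 transduced arrays without siRNA. On siEp300 it had 14.82 and on siCtrl 14.83, against 5.72 on MEF. Mef2c had 18.32 to 18.87 on the transduced arrays, against 8.24 on MEF. Gata4 had 3.57 to 5.09, against 4.22 on MEF, all below the negative-control percentile, and whether its probes lie in the delivered sequence is not known here. The part of these marker differences in the results was not tested. In cultures measured in bulk, fewer cycling cells and less RNA per cell cannot be told apart.

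**Figure D2:**
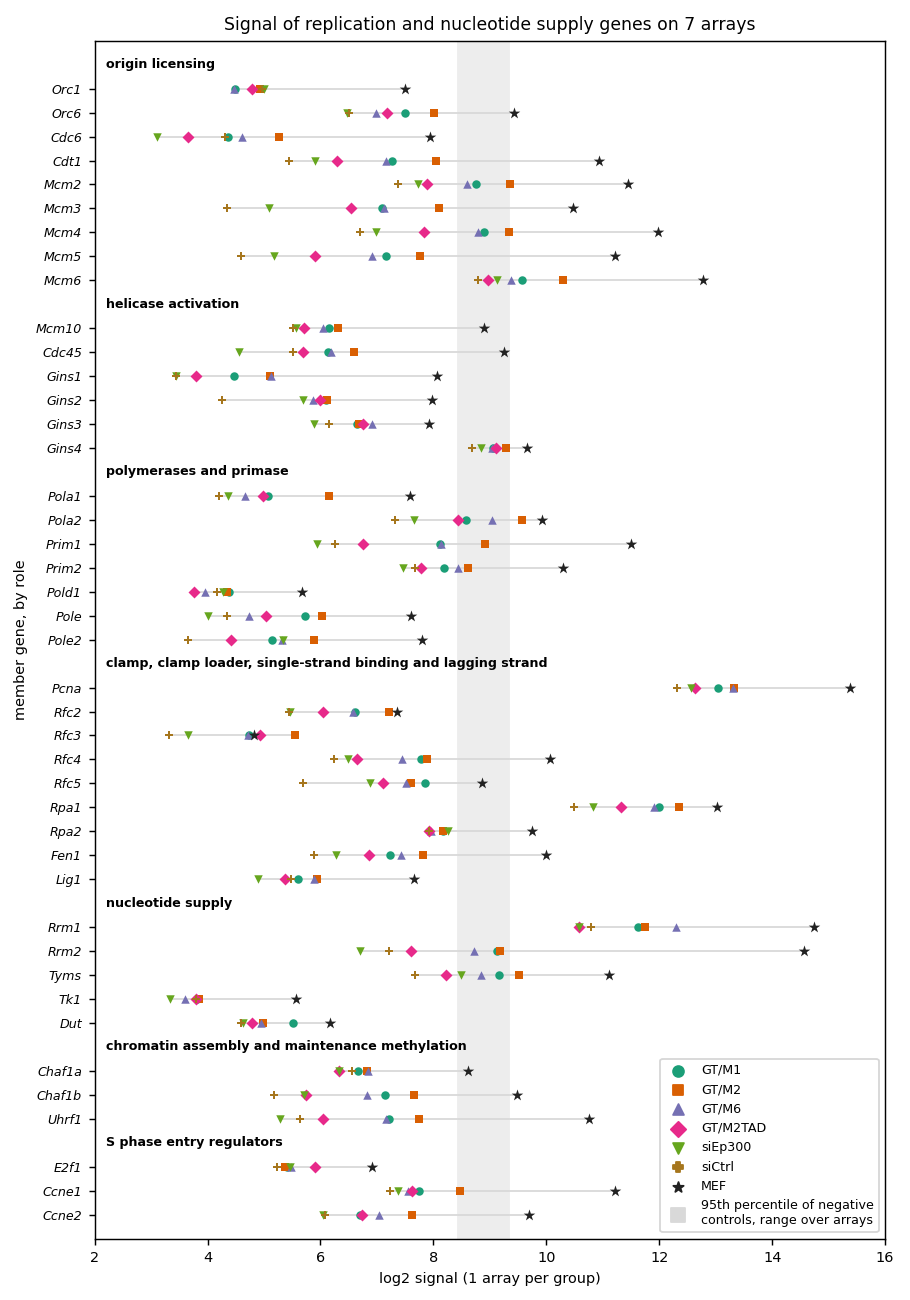
Log2 signal (x axis) of each of the 42 measured members (rows, grouped by role) on the 7 arrays, 1 point per array. The grey band spans the 95th percentiles of negative-control probes, 8.43 to 9.33. The MEF star lies furthest right for 41 of the 42 members, the exception being Rfc3, and GT/M2 is the highest transduced array for 32.

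The members were first set against MEF to ask how replication genes stood in fibroblasts that had received the factors for 1 week. Nearly all were lower on each transduced array. Differences are the array named first minus the one it is set against. Genes were counted as 2-fold apart at a log2 difference of 1 or more, provided that the higher signal was no lower than the median of all named genes on its array. By this rule, 40 of 42 members were lower on GT/M2TAD, 38 on GT/M6, 37 on GT/M2, 38 on GT/M1, 40 on siEp300 and 40 on siCtrl, and 0 were higher on any. The background over all genes was 9.5% lower on GT/M2TAD, 8.79% on GT/M6, 8.34% on GT/M2, 9.52% on GT/M1, 9.29% on siEp300 and 10.9% on siCtrl. For higher genes it was 14% on GT/M2TAD, 13% on GT/M6, 13.6% on GT/M2, 12.5% on GT/M1, 13.4% on siEp300 and 10.9% on siCtrl. Without a size rule, 41 members were below MEF on GT/M2TAD and 41 on GT/M2, with Rfc3 the exception on both, and 42 on each of the other transduced arrays. Of all genes, 44.4% were below MEF on GT/M2TAD, 45.3% on GT/M6, 45.8% on GT/M2, 44.4% on GT/M1, 43.2% on siEp300 and 49.1% on siCtrl. Median differences over the members were -2.82 on GT/M2TAD, -2.53 on GT/M6, -1.89 on GT/M2, -2.33 on GT/M1, -3.10 on siEp300 and -3.41 on siCtrl. Over all genes the medians lay between 0.012 and 0.12. The 6 comparisons share the MEF array and are not independent of each other.

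Scaling changed the split of the whole table. Among all genes 2-fold apart from MEF, 50.1% to 61.9% were higher as deposited, 48.9% to 50.04% after quantile normalization and 41.9% to 47.8% after median centring. Median centring moved the all-gene medians to between -0.25 and -0.059, and member medians then lay between -3.48 and -2.21.

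The members with the firmest signals show the pattern above background. Pcna, the sliding clamp that holds polymerases on DNA, had signals of 12.63 on GT/M2TAD, 13.30 on GT/M6, 13.32 on GT/M2, 13.05 on GT/M1, 12.56 on siEp300 and 12.31 on siCtrl, against 15.37 on MEF. Rrm1, the large subunit of ribonucleotide reductase, had 10.59 on GT/M2TAD, 12.30 on GT/M6, 11.75 on GT/M2, 11.63 on GT/M1, 10.58 on siEp300 and 10.79 on siCtrl, against 14.75 on MEF. Rpa1, the large subunit of the single-strand binding protein, had 11.32 on GT/M2TAD, 11.91 on GT/M6, 12.35 on GT/M2, 11.99 on GT/M1, 10.83 on siEp300 and 10.49 on siCtrl, against 13.02 on MEF. For all of these MEF was the highest array and a siRNA array the lowest, and Rpa1 on GT/M2 differed from MEF by -0.67.

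Origin licensing genes had the lowest median of the 7 role groups on GT/M1, GT/M2, GT/M6, GT/M2TAD and siEp300, and chromatin assembly genes had it on siCtrl. All 9 measured licensing genes were 2-fold lower in each comparison with MEF, with medians of -3.93 on GT/M2TAD, -3.33 on GT/M6, -2.57 on GT/M2, -3.21 on GT/M1, -4.84 on siEp300 and -4.07 on siCtrl. Mcm5, a helicase subunit, had signals of 5.90 on GT/M2TAD, 6.92 on GT/M6, 7.76 on GT/M2, 7.16 on GT/M1, 5.19 on siEp300 and 4.60 on siCtrl, against 11.21 on MEF. Its median difference over the 6 arrays was -4.80, the lowest of the group. Orc6, a subunit of the origin recognition complex, was the least different of the group at -2.36, with 7.17 on GT/M2TAD, 6.99 on GT/M6, 8.01 on GT/M2, 7.50 on GT/M1, 6.48 on siEp300 and 6.50 on siCtrl, against 9.44 on MEF. The remaining helicase subunits Mcm2, Mcm3, Mcm4 and Mcm6 had median differences of -3.21, -3.66, -3.66 and -3.54. Mcm3 spread widely over the transduced arrays, from -6.13 on siCtrl to -2.37 on GT/M2. The loading factors Cdt1 and Cdc6 had medians of -4.22 and -3.61, and Orc1, the origin complex subunit that turns over in the cycle, -2.65. Orc1 and Cdc6 were below the negative-control percentile on all arrays.

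Genes of helicase activation were less uniform. Of 6 measured, 5 were 2-fold lower in each comparison with MEF, and the group medians were -2.59 on GT/M2TAD, -2.49 on GT/M6, -2.22 on GT/M2, -2.31 on GT/M1, -2.81 on siEp300 and -3.55 on siCtrl. Gins1, a subunit of the GINS complex that joins the helicase, had signals of 3.80 on GT/M2TAD, 5.12 on GT/M6, 5.10 on GT/M2, 4.46 on GT/M1, 3.43 on siEp300 and 3.44 on siCtrl, against 8.06 on MEF, all below the negative-control percentile. Gins4, another subunit of the same complex, was lower by less than 2-fold throughout, with 9.11 on GT/M2TAD, 9.04 on GT/M6, 9.28 on GT/M2, 9.05 on GT/M1, 8.85 on siEp300 and 8.69 on siCtrl, against 9.65 on MEF. The 6 transduced signals of Gins4 lay within 0.96 of MEF. Gins2 and Gins3 stood between them, with median differences of -2.06 and -1.25. Cdc45, which completes the active helicase, had a median of -3.33, and Mcm10, which acts as the helicase starts to unwind, -3.02.

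Polymerase and primase genes had medians of -2.56 on GT/M2TAD, -2.48 on GT/M6, -1.57 on GT/M2, -2.11 on GT/M1, -2.84 on siEp300 and -3.26 on siCtrl. Of 7, 6 were 2-fold lower on GT/M6, 6 on GT/M2 and 7 on each of GT/M2TAD, GT/M1, siEp300 and siCtrl. Prim1, the catalytic primase subunit, had signals of 6.75 on GT/M2TAD, 8.13 on GT/M6, 8.92 on GT/M2, 8.12 on GT/M1, 5.93 on siEp300 and 6.26 on siCtrl, against 11.50 on MEF. Pola2, the accessory subunit of polymerase alpha, was the least different by median over the 6 arrays, at -1.42, though Pold1 was nearer to MEF on GT/M1, siEp300 and siCtrl. Pola2 had 8.44 on GT/M2TAD, 9.04 on GT/M6, 9.58 on GT/M2, 8.57 on GT/M1, 7.66 on siEp300 and 7.32 on siCtrl, against 9.93 on MEF. Its difference from MEF was -0.35 on GT/M2 and -2.61 on siCtrl. Prim2, the second primase subunit, had a median difference of -2.31, and Pola1, the catalytic subunit of polymerase alpha, -2.77. The leading-strand polymerase genes Pole and Pole2 had -2.71 and -2.57, and Pold1, catalytic subunit of polymerase delta, -1.46. The signals of Pola1, Pole, Pole2 and Pold1 lay below the negative-control percentile on every array.

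The clamp, its loader and the lagging-strand enzymes had the smallest group medians on GT/M1, GT/M6, GT/M2TAD, siEp300 and siCtrl, at -1.83 on GT/M2TAD, -1.76 on GT/M6, -1.58 on GT/M2, -1.58 on GT/M1, -2.20 on siEp300 and -2.53 on siCtrl. Of 9 genes, 8 were 2-fold lower on GT/M2TAD, 7 on GT/M6, 6 on GT/M2, 7 on GT/M1, 8 on siEp300 and 8 on siCtrl. Subunits of the clamp loader diverged. Rfc4 had signals of 6.64 on GT/M2TAD, 7.45 on GT/M6, 7.88 on GT/M2, 7.77 on GT/M1, 6.48 on siEp300 and 6.24 on siCtrl, against 10.07 on MEF. Rfc3 had 4.94 on GT/M2TAD, 4.72 on GT/M6, 5.55 on GT/M2, 4.73 on GT/M1, 3.66 on siEp300 and 3.32 on siCtrl, against 4.82 on MEF, all below the negative-control percentile, with GT/M2 and GT/M2TAD above MEF. Rfc2 and Rfc5 had median differences of -1.05 and -1.55. The flap endonuclease Fen1, which trims Okazaki fragments, had a median of -2.96, and the ligase Lig1, which seals them, -2.12. Rpa2, a smaller subunit of the single-strand binding protein, varied little among the transduced arrays, between -1.83 and -1.49 from MEF.

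Nucleotide supply genes included the largest difference of the list. Rrm2, the small subunit of ribonucleotide reductase whose protein is tied to S phase, had signals of 7.60 on GT/M2TAD, 8.71 on GT/M6, 9.18 on GT/M2, 9.13 on GT/M1, 6.71 on siEp300 and 7.22 on siCtrl, against 14.56 on MEF. Its differences from MEF lay between -7.86 on siEp300 and -5.38 on GT/M2. Dut, the enzyme that removes dUTP, was the least different of the 5 genes, with 4.78 on GT/M2TAD, 4.95 on GT/M6, 4.98 on GT/M2, 5.51 on GT/M1, 4.63 on siEp300 and 4.60 on siCtrl, against 6.17 on MEF. All Dut signals were below the negative-control percentile. Tyms, thymidylate synthase, had a median difference of -2.44, and Tk1, the cytosolic thymidine kinase, -1.78. Group medians were -2.89 on GT/M2TAD, -2.26 on GT/M6, -1.73 on GT/M2, -1.94 on GT/M1, -2.62 on siEp300 and -3.43 on siCtrl, and 4 of 5 genes were 2-fold lower on GT/M1 and 5 of 5 on the other transduced arrays.

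Chromatin assembly and maintenance methylation genes were 2-fold lower in 3 of 3 cases in each comparison, with medians of -3.73 on GT/M2TAD, -2.65 on GT/M6, -1.82 on GT/M2, -2.34 on GT/M1, -3.77 on siEp300 and -4.30 on siCtrl. Uhrf1, which recruits the maintenance methyltransferase to new DNA, had signals of 6.04 on GT/M2TAD, 7.16 on GT/M6, 7.75 on GT/M2, 7.22 on GT/M1, 5.29 on siEp300 and 5.64 on siCtrl, against 10.75 on MEF. Chaf1b and Chaf1a, subunits of the histone chaperone CAF-1, had median differences of -3.19 and -2.004. Chaf1a had 6.34 on GT/M2TAD, 6.84 on GT/M6, 6.83 on GT/M2, 6.67 on GT/M1, 6.33 on siEp300 and 6.55 on siCtrl, against 8.61 on MEF. Its transduced arrays lay close together, while those of Chaf1b spanned -4.30 on siCtrl to -1.82 on GT/M2.

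Regulators of S phase entry were also 2-fold lower in 3 of 3 cases in each comparison, with medians of -2.96 on GT/M2TAD, -2.66 on GT/M6, -2.06 on GT/M2, -2.99 on GT/M1, -3.65 on siEp300 and -3.62 on siCtrl. Ccne1, cyclin E1, which activates Cdk2 at S phase entry, had signals of 7.63 on GT/M2TAD, 7.54 on GT/M6, 8.47 on GT/M2, 7.75 on GT/M1, 7.37 on siEp300 and 7.23 on siCtrl, against 11.21 on MEF. Ccne2, its close relative, had a median difference of -2.97. E2f1, an activating E2F factor, had 5.89 on GT/M2TAD, 5.47 on GT/M6, 5.38 on GT/M2, 5.42 on GT/M1, 5.46 on siEp300 and 5.23 on siCtrl, against 6.91 on MEF. GT/M2TAD was the transduced array nearest to MEF for E2f1, and all E2f1 signals were below the negative-control percentile.

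**Figure D3:**
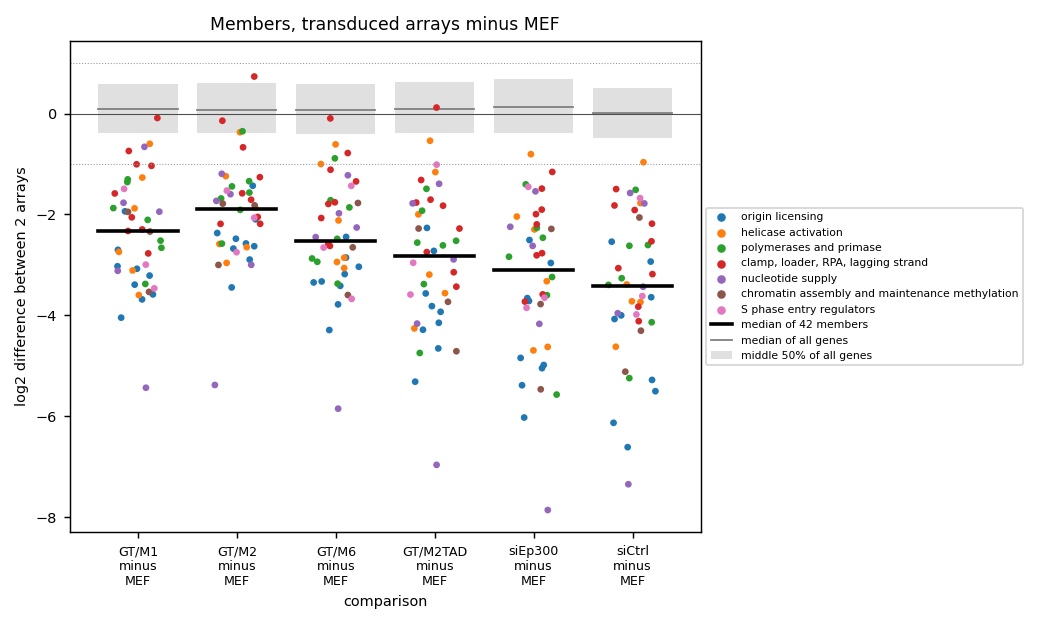
Log2 difference from MEF (y axis) of each member on the 6 transduced arrays, coloured by role, with the members' median as a black line. Grey bars hold the middle 50% of all 19505 genes and the grey line their median. Member medians run from -3.41 on siCtrl to -1.89 on GT/M2, below the grey bars on all 6.

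Other genes of the pathway were read from lists chosen by role. Of 43 other replication genes, 42 were measured, and 30 were 2-fold lower than on MEF on GT/M2TAD, 28 on GT/M6, 22 on GT/M2, 27 on GT/M1, 32 on siEp300 and 35 on siCtrl. Between 1 and 2 were higher. The medians were -1.68 on GT/M2TAD, -1.60 on GT/M6, -1.18 on GT/M2, -1.48 on GT/M1, -1.56 on siEp300 and -2.05 on siCtrl. The lowest were Pclaf, a clamp-associated factor, at a median of -4.68, and Ticrr, which helps Cdc45 onto origins, at -4.51. Pold4, the small subunit of polymerase delta, was higher, with signals of 7.53 on GT/M2TAD, 7.30 on GT/M6, 7.36 on GT/M2, 6.35 on GT/M1, 7.41 on siEp300 and 7.60 on siCtrl, against 4.91 on MEF. All Pold4 signals were below the negative-control percentile. Asf1a, a histone chaperone, had 8.08 on GT/M2TAD, 9.90 on GT/M6, 9.21 on GT/M2, 10.11 on GT/M1, 7.25 on siEp300 and 6.65 on siCtrl, against 8.54 on MEF, which put it 2-fold higher on GT/M1 and GT/M6 and 2-fold lower on siEp300 and siCtrl. Rnaseh2c, a subunit of the ribonuclease that removes ribonucleotides from DNA, had a median difference of 0.30.

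Of 27 other nucleotide supply genes, 25 were measured. Of these, 16 were 2-fold lower on GT/M2TAD, 15 on GT/M6, 11 on GT/M2, 15 on GT/M1, 15 on siEp300 and 17 on siCtrl, and 1 to 2 were higher. The medians were -1.35 on GT/M2TAD, -1.41 on GT/M6, -0.61 on GT/M2, -1.30 on GT/M1, -1.30 on siEp300 and -2.02 on siCtrl. Umps, of uridine synthesis, and Dctpp1, which clears modified cytidine nucleotides, were lowest at medians of -3.38 and -2.36. Rrm2b, the reductase subunit that serves cells outside S phase, was higher, with signals of 9.50 on GT/M2TAD, 8.88 on GT/M6, 9.15 on GT/M2, 8.86 on GT/M1, 9.70 on siEp300 and 9.05 on siCtrl, against 7.34 on MEF. Rrm2b thus stood opposite to Rrm2 on each transduced array. Impdh1, of guanine nucleotide synthesis, had a median of 0.71 and was 2-fold higher on GT/M2 and GT/M2TAD, and the mitochondrial thymidine kinase Tk2 reached 2-fold on siEp300 at 1.45.

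E2F and pocket protein genes went both ways. Of 12, between 2 and 5 were 2-fold lower and 2 to 3 higher than on MEF. The repressive factor E2f7 had signals of 6.09 on GT/M2TAD, 6.09 on GT/M6, 6.63 on GT/M2, 6.42 on GT/M1, 5.53 on siEp300 and 5.74 on siCtrl, against 10.52 on MEF, and the pocket protein gene Rbl1 a median difference of -1.98. Rbl2, the pocket protein typical of resting cells, was higher, with 9.72 on GT/M2TAD, 9.62 on GT/M6, 9.99 on GT/M2, 9.42 on GT/M1, 9.58 on siEp300 and 9.76 on siCtrl, against 7.95 on MEF. Tfdp2, a partner of E2F factors, had a median of 2.29, and the retinoblastoma gene Rb1 1.28. Rb1 was furthest from MEF on the siRNA arrays, at 2.42 on siEp300 and 2.43 on siCtrl.

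The list of Cdk inhibitors and D-type cyclins, with their kinases, went both ways. Of 11 measured, 4 were 2-fold higher in each comparison with MEF, and 3 were 2-fold lower on GT/M2TAD, 0 on GT/M6, 0 on GT/M2, 1 on GT/M1, 3 on siEp300 and 4 on siCtrl. List medians were 0.21 on GT/M2TAD, 0.71 on GT/M6, 0.70 on GT/M2, 0.74 on GT/M1, 0.037 on siEp300 and -0.20 on siCtrl. Cdkn2a, the locus of the Ink4a and Arf inhibitors, had signals of 7.81 on GT/M2TAD, 8.45 on GT/M6, 8.40 on GT/M2, 7.71 on GT/M1, 10.24 on siEp300 and 9.15 on siCtrl, against 2.96 on MEF. Only on siEp300 and siCtrl did Cdkn2a exceed the negative-control percentile. Cdkn2b, its neighbour, which encodes another inhibitor of Cdk4 and Cdk6, had 10.11 on GT/M2TAD, 9.50 on GT/M6, 9.15 on GT/M2, 9.14 on GT/M1, 11.60 on siEp300 and 11.33 on siCtrl, against 6.30 on MEF. Cdkn1a, a p53 target that inhibits Cdk2, had 18.05 on GT/M2TAD, 17.98 on GT/M6, 17.75 on GT/M2, 17.57 on GT/M1, 18.07 on siEp300 and 18.39 on siCtrl, against 16.53 on MEF. Cdk6 was the other higher gene, at a median difference of 1.47. Cdkn2c and Cdkn2d were lowest in the list by median, at -1.09 and -0.89. Cdkn1b, the inhibitor p27, differed by -1.15 on GT/M2TAD, -1.66 on siEp300 and -2.17 on siCtrl and was nearly level with MEF on the other arrays, and it is named here after its values were seen. For Cdkn2a, Cdkn2b and Cdkn1a the MEF array was the lowest of the 7.

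Mitosis genes were read beside the members as another group tied to the cell cycle. Of 31 measured, 28 to 30 were 2-fold lower than on MEF, with medians of -4.74 on GT/M2TAD, -4.00 on GT/M6, -3.24 on GT/M2, -3.68 on GT/M1, -5.14 on siEp300 and -5.37 on siCtrl. Each of these medians was further from 0 than the members' median on the same array. Plk1 and Tpx2, which act on the spindle, had medians of -5.81 and -5.44, and the centromere genes Zwint and Cenpa had the highest medians at 0.12 and -0.48. Cenpa was 2-fold higher than on MEF on GT/M2TAD, at 1.02, the 1 such case in the list, and 2-fold lower on siCtrl, at -1.37. Whether the groups differ was not tested.

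**Figure D4:**
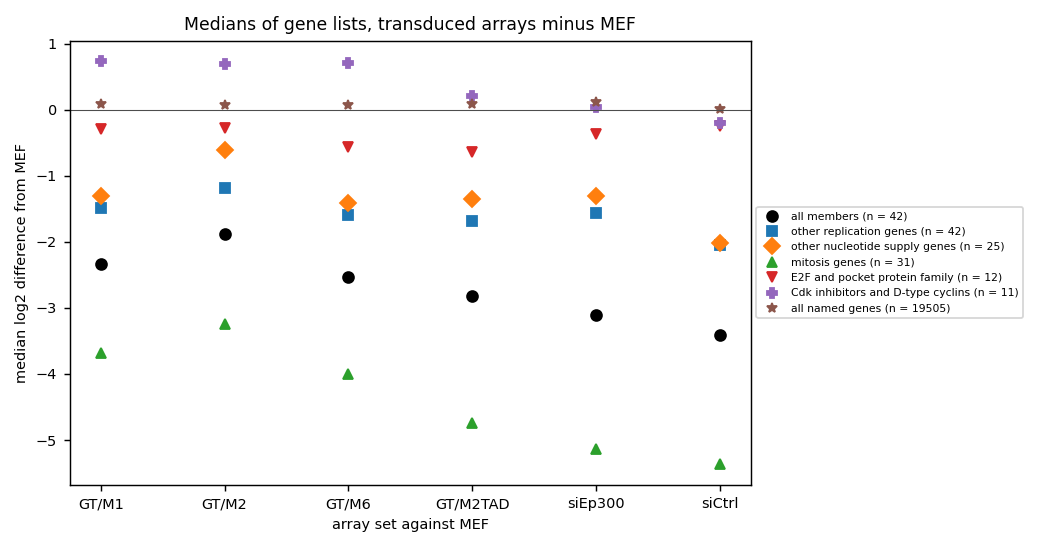
Median log2 difference from MEF (y axis) of the members, 5 other gene lists and all named genes on the 6 transduced arrays (x axis), 1 point per list and array. Mitosis genes lie lowest, from -5.37 to -3.24, followed by the members.

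Arrays of the Mef2c isoforms were next set beside one another, since the study varied the isoform. Most members were highest on GT/M2. Between GT/M2 and GT/M1, the median over members was 0.45, against 0.022 over all genes, and 4 of 42 members were below 0, against 48% of all genes. Of the 42, 3 were 2-fold higher on GT/M2, Pola1 at 1.07, Mcm3 at 1.02 and Pola2 at 1.01, where the background was 1.9%. None was 2-fold lower, with a background of 1.39%. Signals of Pola1 and Mcm3 lay below the negative-control percentile on both arrays. After quantile normalization or level-dependent centring, 1 member was 2-fold higher, and the 2-fold genes of the whole table then split into 299 higher and 344 lower or 291 and 341, against 370 and 271 as deposited. Ccne2 at 0.93 and Cdc6 at 0.91 came next, and Rpa2, Gins2 and Gins3 differed least, at 0.0034, 0.016 and 0.028. Nucleotide supply genes had a median of 0.055, and licensing genes 0.60 with 0 of 9 below 0.

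GT/M6 and GT/M1 were nearly level. The members' median was -0.069, against 0.0073 over all genes, 26 of 42 members were below 0, against 49% of all genes, and 0 members were 2-fold apart, where the background was 0.292% lower and 0.646% higher. Pole was the furthest apart at -0.999, just short of the rule, and after median or level-dependent centring it counted as 2-fold lower. Rrm1 at 0.67, Gins1 at 0.66, Dut at -0.56 and Orc6 at -0.51 followed. Prim1, Rfc3 and Orc1 differed least, at 0.0053, -0.0083 and -0.0097.

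Between GT/M6 and GT/M2 the median was -0.47, against -0.018 over all genes, and 37 of 42 members were below 0, against 51.8% of all genes. Pola1 at -1.49, Pole at -1.31 and Orc6 at -1.01 were 2-fold lower on GT/M6, with a background of 1.71%. Mcm3 at -0.98 and Mcm6 at -0.93 came next, and Chaf1a, Gins1 and Pcna were least apart at 0.012, 0.019 and -0.021. Rrm1 was higher on GT/M6, at 0.55. Signals of Pola1, Pole and Orc6 were below the negative-control percentile on both arrays.

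To see how isoform 2 with the MyoD domain stood, GT/M2TAD was set against GT/M2. Members were lower on GT/M2TAD, with a median of -0.98, against 0.002 over all genes, and 40 of 42 members below 0, against 49.8% of all genes. By the rule, 18 members were 2-fold lower and 0 higher, where the background was 3.33% lower and 2.96% higher. Prim1 at -2.17, Chaf1b at -1.91, Mcm5 at -1.87, Cdt1 at -1.76 and Uhrf1 at -1.71 were furthest apart. Except for Prim1, their signals lay below the negative-control percentile on both arrays. Tk1, Gins3 and Gins2 were least apart, at -0.049, 0.081 and -0.13, and E2f1 was higher at 0.51. By role, 6 of 9 licensing genes, 4 of 7 polymerase and primase genes, 3 of 5 nucleotide supply genes and 0 of 6 helicase activation genes were 2-fold lower. Above the negative-control percentile on both arrays, Rrm1 differed by -1.16, Rpa1 by -1.04, Pcna by -0.70 and Gins4 by -0.17. Asking for both arrays leaves out members that fell below the percentile on GT/M2TAD. All 11 members above it on either array exceeded it on GT/M2, and 4 of them also on GT/M2TAD. Of the 11, 9 were 2-fold lower on GT/M2TAD. That filter admits members through the array where they are high, so this count is favoured in advance and adds no support. Of the cell type markers, 4 of 11 fibroblast genes were 2-fold higher on GT/M2TAD and 2 lower, and 3 of 15 cardiomyocyte genes were higher and 4 lower.

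The size of that difference depended on the comparator. Against GT/M1, a comparison added after seeing the data, 8 members were 2-fold lower on GT/M2TAD with a median of -0.56, where the background was 2.79%. Against GT/M6, added in the same way, 6 were lower with a median of -0.53 and a background of 2.57%. Against the mean of GT/M1, GT/M2 and GT/M6, 10 were lower with a median of -0.62 and a background of 2.28%. Within the 4 arrays without siRNA, GT/M2TAD had the lowest signal for 30 of 42 members, against 28.7% of all genes, and GT/M6 for 9, against 20.9%. GT/M2 had the highest signal for 34 members, against 27.9% of all genes, GT/M6 for 4, against 20.3%, and GT/M2TAD for 1, against 29.5%.

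The siEp300 array was set against siCtrl to see how the members stood with siRNA against Ep300. The target Ep300, which encodes the acetyltransferase p300, had a signal of 9.47 on siEp300 and 9.90 on siCtrl, or -0.43 apart. The members' median was 0.14, against 0.14 over all genes. Of 42 members, 15 were below 0, against 37.6% of all genes. Gins2 at 1.42 and Rfc5 at 1.19 were 2-fold higher and 0 were lower, with backgrounds of 1.93% higher and 0.39% lower. Pole2 at 1.67 and Cdc6 at -1.20 were further apart than 2-fold but their higher signals did not reach the array's median. Cdc45 followed at -0.96, and Gins1, Rfc2 and Orc6 were least apart at -0.0032, 0.0089 and -0.028. The signals of Gins2, Rfc5, Pole2, Cdc6 and Cdc45 lay below the negative-control percentile on both arrays. After median centring, quantile normalization and level-dependent centring the members' median was -0.021, -0.035 and -0.032, so its sign rests on the scaling. Among all genes, 377 were higher and 76 lower as deposited, 195 and 141 after median centring and 161 and 168 after quantile normalization. Mitosis genes had a median of 0.46 and other replication genes 0.37 as deposited.

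The control siRNA array was set against the arrays of both Mef2c forms its labels name. On siCtrl, members were lower than on GT/M2, with a median of -1.65, against -0.12 over all genes, and 41 of 42 were below 0, against 57.2% of all genes. By the rule 26 were 2-fold lower and 0 higher, where the background was 11.2% lower and 5.3% higher. Cell type markers moved with this comparison: 9 of 11 fibroblast markers were 2-fold higher on siCtrl and 1 lower, with a median of 1.93, and 5 of 15 cardiomyocyte markers were 2-fold lower and 2 higher. The median of the cardiomyocyte markers was -0.035, with 8 of 15 below 0. Fibroblast markers ranged from -3.41 for Dcn to 6.94 for Postn, both matrix genes. Cardiomyocyte markers ranged from -4.97 for Myh6, a cardiac myosin heavy chain gene, to 1.39 for Casq2. The delivered factor Tbx5 had a signal of 14.83 on siCtrl, 16.23 on GT/M2 and 16.14 on GT/M2TAD. The part of these markers and of Tbx5 in the members' differences was not tested. Mcm3 at -3.76, Mcm5 at -3.16, Prim1 at -2.66, Mcm4 at -2.65 and Cdt1 at -2.61 were furthest apart, and Orc1, Tk1 and E2f1 least, at 0.035, -0.051 and -0.15. Signals of Mcm3, Mcm5 and Cdt1 lay below the negative-control percentile on both arrays. Against GT/M2TAD the median was -0.50, with -0.14 over all genes, and 35 of 42 members were below 0, against 60.1% of all genes. The members thus differed by -0.36 from the all-gene median as deposited and -0.25 after quantile normalization. There 6 members were 2-fold lower, and 0 higher, with backgrounds of 6.38% and 3.04%. In the same comparison 7 of 11 fibroblast markers were 2-fold higher and 1 lower, and 6 of 15 cardiomyocyte markers were lower and 0 higher. The 6 lower members were Mcm3 at -2.20, Gins2 at -1.72, Rfc5 at -1.42, Mcm5 at -1.30, Mcm4 at -1.13 and Pola2 at -1.11. Signals of all 6 lay below the negative-control percentile on both arrays. Rfc3 was at -1.62 with both signals under the medians of their arrays, and Tk1, Rpa2 and Lig1 were least apart at -0.002, 0.004 and 0.097. Among all genes 2-fold apart, 32.2% were higher on siCtrl against either array as deposited, while quantile normalization gave 49.98% against GT/M2 and 51.7% against GT/M2TAD. Over the 6 transduced arrays, siCtrl had the lowest signal for 24 of 42 members, against 31.9% of all genes, and siEp300 for 15, against 14.6%. GT/M2 had the highest for 32, against 20.6%.

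**Figure D5:**
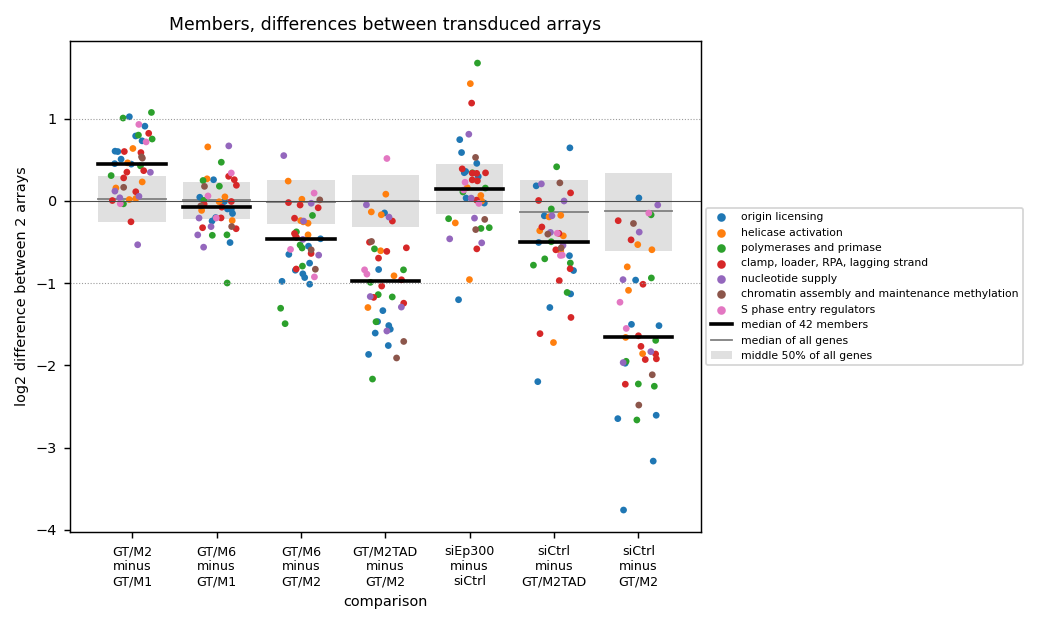
Log2 difference (y axis) of each member in the 7 comparisons between transduced arrays, coloured by role, with the members' median as a black line and the middle 50% of all genes as a grey bar. The members' median leaves the grey bar for GT/M2 minus GT/M1, GT/M6 minus GT/M2, GT/M2TAD minus GT/M2 and siCtrl minus GT/M2.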

How the data were processed

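RNA of 7 mouse fibroblast cultures was measured on 7 Clariom S arrays, 1 per group, so the precision is limited by the number of arrays and no interval or p-value is given. The deposited values are log2 signals. The authors made them with SST-RMA in Affymetrix Expression Console 1.4, per the submitters' processing notes and the series text, and neither its settings nor a genome build could be read from them (not given in the sources used here). Low signals near background understate differences, and array normalization can hide shifts shared by most genes.

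The 28846 probe sets were named through the platform annotation. A single symbol was found for 19572 probe sets and none for 9274, giving 19505 genes. The probe set with the highest mean stood for each of 55 genes with several. Differences were taken between arrays with pandas 2.3.3 and counted as 2-fold apart when at least 1 on the log2 scale with the higher value at or above its array's median. Counting was tested on simulated data with 200 changed genes. Alternatives were quantile normalization, median centring, level-dependent centring (lowess, span 0.3, statsmodels 0.14.6), other floors and another rule for several probe sets.

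Groups came from the sample titles. Members and lists were chosen with earlier results of these data known. Genes named were the lowest and highest member of each role by median difference from MEF, the 5 most and 3 least different members of each other comparison with those 2-fold apart when 10 or fewer, and the 2 lowest and 2 highest genes of each other list with those 2-fold higher. Remaining members are given by their medians. Promoters came from RefSeq (GRCm38.p6), for the pairs of members with the lowest and the highest median difference that had a window.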

Additional observations from a re-analysis of the deposited data

How the results depend on the processing

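No paired analysis was possible because each group had 1 array. Over the alternatives, 135 of 158 counts of members stayed within 1.5 times the count as reported and 23 moved, and all 53 list medians and all 300 single values shifted by less than 0.5 on the log2 scale. Of the 300 single values, 25 crossed the 2-fold line, each from past it to short of it. Only changes of scaling were run for these values. Values of comparisons between transduced arrays entered only when already 2-fold apart, so they could cross in this direction alone. No difference that was called reversed its direction under the alternatives run. Raising the floor to the 95th percentile of negative-control probes lowered counts because fewer members reach it. Of members 2-fold lower than on MEF, it left 25 on GT/M2TAD, 24 on GT/M6, 23 on GT/M2, 25 on GT/M1, 25 on siEp300 and 25 on siCtrl. Of members 2-fold lower than on GT/M2, it left 9 on GT/M2TAD, 9 on siCtrl and 0 on GT/M6. It also left 1 member higher on GT/M2 than on GT/M1, 0 higher on siEp300 than on siCtrl, and 0 lower on siCtrl than on GT/M2TAD. Members pass this floor mostly through the array where they are high. On MEF 26 of 42 exceeded the percentile, and on the transduced arrays 4 to 11. The counts lower than on MEF and GT/M2 are thus in part set by the filter and add no support. No share over all genes was taken with this floor. Quantile normalization and level-dependent centring each gave 1 member higher on GT/M2 than on GT/M1, and 1 higher and 1 lower on siEp300 than on siCtrl. Median centring, and no floor, also gave 1 lower on siEp300 than on siCtrl. Median centring and level-dependent centring gave 1 lower on GT/M6 than on GT/M1. The mean of GT/M1, GT/M2 and GT/M6 as comparator, a choice made for these counts after seeing the data, gave 10 members lower on GT/M2TAD. The cause of these changes beyond the floor was not tested. With 1 array per group, none of these values covers the spread between cultures, and background limits members under the negative-control percentile most.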

Other observations

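Some genes of the other lists stood apart on the siRNA arrays. They were chosen after their values were seen, and no explanation was tested. E2f8, a repressive E2F factor close to E2f7, had signals of 10.80 on GT/M2TAD, 12.10 on GT/M6, 12.01 on GT/M2, 13.04 on GT/M1, 8.99 on siEp300 and 8.54 on siCtrl, against 12.33 on MEF. E2f8 was thus above MEF on GT/M1 and lowest on the siRNA arrays. Samhd1, which degrades deoxynucleotides, had 10.99 on GT/M2TAD, 10.69 on GT/M6, 10.23 on GT/M2, 10.58 on GT/M1, 11.74 on siEp300 and 12.13 on siCtrl, against 12.23 on MEF. Ctps, which makes CTP, had 9.81 on GT/M2TAD, 9.64 on GT/M6, 9.81 on GT/M2, 9.50 on GT/M1, 11.58 on siEp300 and 11.43 on siCtrl, against 12.02 on MEF. Both Samhd1 and Ctps were nearer to MEF on the siRNA arrays than on the other 4 transduced arrays.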
